A study of Mus musculus with 28 samples.

Results

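The pore-forming alpha-1 subunits of voltage-gated calcium channels were read in nascent RNA of mouse forebrain cultures as 8 named genes, Cacna1a, Cacna1b, Cacna1c, Cacna1d, Cacna1e, Cacna1g, Cacna1h and Cacna1i, of the 22919 genes listed in each of the authors' deposited comparison tables. They were chosen by name, and all 8 had a test in all 7 tables. Nascent RNA was measured by Bru-seq, in which RNA made during a short pulse of bromouridine is pulled down with an antibody and sequenced. The cultures came from CD1 embryos at embryonic day 18, with cortices and hippocampi pooled from embryos of matched sex ratio, and held neurons, astrocytes and oligodendrocyte precursor cells, per the labels. On day in vitro 14 they were infected with lentivirus that delivered either a control hairpin (shCtrl) or a hairpin (shRNA) targeting the chromatin regulator Rai1 (shRai1). On day 17 they received vehicle (water), 1 µM tetrodotoxin (TTX), a blocker of sodium channels that silences firing, or 20 µM bicuculline (BIC), a blocker of GABA-A receptors that raises network activity, for 4 h, with bromouridine in the last 20 min. Groups of shCtrl held 2 vehicle, 3 TTX and 2 BIC libraries and groups of shRai1 held 3 libraries each, 16 in all. By their titles, the shCtrl vehicle libraries were replicates 1 and 2 and the shCtrl BIC libraries replicates 2 and 3. Every other group held replicates 1, 2 and 3. The deposited files give pooled values and test results per comparison, not values per library, so the spread between libraries enters only through the authors' standard errors (SE) and bounds.

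Voltage-gated calcium channels open on depolarization and let calcium into the cell, where it drives transmitter release, shapes firing and signals to the nucleus. The alpha-1 subunit forms the pore and sets the channel type. Cacna1c and Cacna1d encode the L-type channels Cav1.2 and Cav1.3, which are placed mostly on the soma and dendrites and are known for coupling activity to gene expression. Cacna1a, Cacna1b and Cacna1e encode the P/Q-type, N-type and R-type channels, of which the P/Q-type and N-type are the main triggers of transmitter release. Cacna1g, Cacna1h and Cacna1i encode the T-type channels, which open at low voltage and take part in burst firing.

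In the shCtrl arm, 4 h of TTX raised nascent RNA of 6 of the 8 genes and lowered none, beside 11.8% of all genes tested called higher and 14.9% lower. BIC raised 2 and lowered 4 in the authors' deposited table, beside 17.4% called higher and 17.0% lower, and for 1 of the 2, Cacna1e, the authors' pooled FPKM had the opposite sign. The T-type genes and the L-type gene Cacna1d stood on the opposite side from the P/Q-type gene Cacna1a under BIC. Cacna1h moved most, 1.81-fold up under TTX and to 0.515 of vehicle under BIC, as the authors' deposited tables give it. In the shRai1 arm, TTX raised 4 of the 8 genes and lowered 1, Cacna1a, beside 13.7% of all genes called higher and 16.8% lower. BIC raised 2 and lowered 5 in that arm, beside 21.3% called in each direction. For shRai1 against shCtrl, 0 of the 8 were called in vehicle, TTX or BIC, where 0.857%, 0.0283% and 0.00944% of all genes were. The TTX response differed between the arms for 1 of the 8, Cacna1i, beside 0.943% of all genes.

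Promoter sequence of 300 bases, from 250 before to 50 after an annotated start, was held by the RefSeq table (GRCm38.p6) for 5 of the 8 genes, in 8 windows, since Cacna1c had 3 and Cacna1d had 2. Each window was searched on both strands for motifs of factors known for activity-driven transcription. The cAMP response element (CRE) TGACGTCA, the AP-1 site TGANTCA, the CArG box and the E-box CACGTG matched in 0 of the 8 windows, against 1.79%, 7.81%, 1.63% and 7.15% of all 32851 windows. The short CRE core TGACG, which lies within the full CRE, matched once in each of 3 windows, against 20.8% of all windows. These 3 are printed because they are the member windows with any such match, with this core in capitals, and the match in Cacna1i is on the other strand and reads CGTCA. The coordinates are chr2:24763103-24763402 (minus strand) for Cacna1b, chr6:119196360-119196659 (minus strand) for the window of Cacna1c, and chr15:80286988-80287287 (plus strand) for Cacna1i.
Cacna1b: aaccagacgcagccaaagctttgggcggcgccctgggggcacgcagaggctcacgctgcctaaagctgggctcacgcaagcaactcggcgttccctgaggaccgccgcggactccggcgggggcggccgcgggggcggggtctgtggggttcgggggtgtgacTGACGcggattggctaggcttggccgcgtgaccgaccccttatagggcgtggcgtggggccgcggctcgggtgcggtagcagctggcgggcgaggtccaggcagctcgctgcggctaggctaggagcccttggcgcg
Cacna1c: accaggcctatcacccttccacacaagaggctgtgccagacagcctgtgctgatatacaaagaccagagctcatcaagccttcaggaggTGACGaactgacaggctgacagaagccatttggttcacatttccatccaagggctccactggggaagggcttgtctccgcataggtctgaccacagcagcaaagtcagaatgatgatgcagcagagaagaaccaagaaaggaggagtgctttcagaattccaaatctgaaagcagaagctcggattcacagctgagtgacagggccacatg
Cacna1i: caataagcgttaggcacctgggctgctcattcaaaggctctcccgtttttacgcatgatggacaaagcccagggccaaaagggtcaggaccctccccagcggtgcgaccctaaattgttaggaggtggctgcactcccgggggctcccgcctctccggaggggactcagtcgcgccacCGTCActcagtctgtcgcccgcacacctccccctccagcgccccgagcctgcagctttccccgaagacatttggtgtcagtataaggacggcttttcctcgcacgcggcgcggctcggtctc
A match in such letters describes the sequence and is not a measured site. The windows differed in base composition, from 40.3% G and C in 1 window of Cacna1d to 87.3% in its other window, with a median of 52.7% over all windows. The GC box GGGCGG, found in 35.7% of all windows, matched 3 times in Cacna1b and 6 times in 1 window each of Cacna1c and Cacna1d. The TATA letters TATAAA, found in 13.6% of all windows, matched 3 times in the other window of Cacna1d and in no other window of the 5 genes.

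Levels per gene length were read from the authors' pooled FPKM (fragments per kilobase of gene, scaled to library size) in the shCtrl arm, with the lower and upper bound that the authors give. The table covers whole genes, introns included. In vehicle, Cacna1a had 19.0 FPKM (bounds 14.7 to 23.4), Cacna1e 17.9 (13.8 to 21.9) and Cacna1b 15.3 (11.8 to 18.8). These 3 genes of the P/Q-, N- and R-type channels were the highest of the 8, at percentiles 84.2, 82.9 and 79.4 of 21165 genes, whose median was 4.68 FPKM. Of the L-type genes, Cacna1c had 12.1 FPKM (9.20 to 15.1) at rank 4, and Cacna1d had 8.63 (5.28 to 11.98) at rank 6. The T-type gene Cacna1i had 9.98 FPKM (7.64 to 12.3), Cacna1h 5.60 (4.13 to 7.07) and Cacna1g 4.74 (3.44 to 6.03). In the descending order a, e, b, c, i, d, h, g, the bounds of every neighbouring pair overlapped. Cacna1a and Cacna1e lay with their bounds wholly above 4 members, Cacna1i, Cacna1d, Cacna1h and Cacna1g. Cacna1h and Cacna1g were near the median of all genes, at percentiles 53.7 and 50.2.

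**Figure D1:**
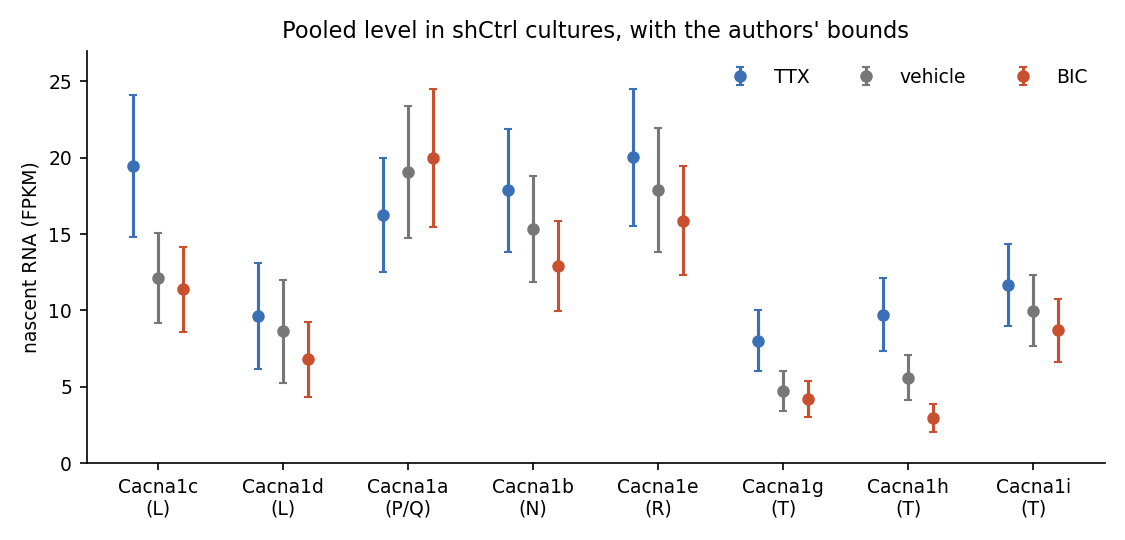
Authors' pooled FPKM of each pore subunit gene (y axis) in shCtrl cultures under TTX (blue), vehicle (grey) and BIC (red), with channel type in brackets. Points are pooled values and bars the authors' bounds. Against vehicle, bounds separate under TTX for Cacna1g and Cacna1h, and under BIC for Cacna1h.

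The 8 genes lie on 8 chromosomes, and their deposited intervals ranged from 63.2 to 634.4 kb. Positions are given 1-based, with mm9 the build that the submitters' processing notes name. The interval listed for Cacna1h is chr17:25507498-25570728 and that for Cacna1g chr11:94269705-94335512, both under 100 kb. The other 6 intervals were at least 100 kb long: Cacna1i at chr15:80117668-80228722, Cacna1b at chr2:24459409-24618672, Cacna1a at chr8:86939263-87164148, Cacna1e at chr1:156239649-156573050, Cacna1d at chr14:30822186-31340242 and Cacna1c at chr6:118537258-119171632. For 3 genes the interval is listed for other genes too, so it spans more than the gene: Cacna1c shares it with Dcp1b and 4931430N09Rik, Cacna1d with Dcp1a and Chdh, and Cacna1h with Tpsg1. Their FPKM are therefore uncertain as levels of the gene alone. Mean normalized counts over all libraries ranged from 648 for Cacna1h to 17315 for Cacna1c, against a median of 107.3 over tested genes, in the authors' deposited tables.

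Silencing with TTX raised 2 of the 3 T-type genes, Cacna1h and Cacna1g, more than the other members in either arm. Cacna1h had 5.60 FPKM in vehicle and 9.73 (7.35 to 12.1) in TTX in shCtrl, and its bounds did not overlap. Its log2 change in the authors' deposited tables was 0.86 (SE 0.098, DESeq2 adjusted p = 1.27e-16) in shCtrl and 0.83 (SE 0.086, adjusted p = 2.67e-20) in shRai1. Cacna1h thus rose by nearly the same amount in the libraries of either arm. Cacna1g had 4.74 FPKM in vehicle and 8.03 (6.04 to 10.0) in TTX, also without overlap. Its log2 change in the authors' deposited tables was 0.83 (SE 0.13, DESeq2 adjusted p = 2.63e-09) in shCtrl and 0.55 (SE 0.11, adjusted p = 1.27e-05) in shRai1. Cacna1i, the third T-type gene, had 9.98 FPKM in vehicle and 11.7 (8.98 to 14.4) in TTX, with overlapping bounds. It rose in shCtrl, by 0.33 on the log2 scale (SE 0.078, DESeq2 adjusted p = 0.000164), and had a log2 change of -0.07 (SE 0.068, adjusted p = 0.505) in shRai1, as given by the authors' deposited tables.

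Of the L-type genes, Cacna1c rose under TTX. Its pooled level went from 12.1 FPKM in vehicle to 19.5 (14.8 to 24.1) in TTX, with bounds that just overlapped. The log2 change of Cacna1c was 0.63 (SE 0.090, DESeq2 adjusted p = 6.3e-11) in shCtrl and 0.25 (SE 0.079, adjusted p = 0.00735) in shRai1, as given by the authors' deposited tables. Cacna1d had 8.63 FPKM in vehicle and 9.65 (6.19 to 13.1) in TTX, and was not called in either arm. Its log2 change in the authors' deposited tables was 0.02 (95% interval -0.15 to 0.20) in shCtrl and -0.17 (-0.33 to -0.02; DESeq2 adjusted p = 0.0897) in shRai1. The L-type pair therefore did not move together under TTX.

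Among the other high-voltage channels, Cacna1e rose under TTX, by 0.39 on the log2 scale in shCtrl (SE 0.10, DESeq2 adjusted p = 0.000891) and by 0.22 in shRai1 (SE 0.090, adjusted p = 0.0451), as given by the authors' deposited tables. The call of Cacna1e in shRai1 was lost, at an adjusted p of 0.0614, when p-values were adjusted over all genes with one. Cacna1e had 17.9 FPKM in vehicle and 20.0 (15.5 to 24.5) in TTX. Cacna1b rose in shCtrl by 0.20 (SE 0.064, DESeq2 adjusted p = 0.00980) and had a log2 change of -0.05 (SE 0.057, adjusted p = 0.567) in shRai1, as given by the authors' deposited tables. Cacna1a had a log2 change of -0.05 (SE 0.074, DESeq2 adjusted p = 0.660) in shCtrl and fell by 0.25 (SE 0.065, adjusted p = 0.000627) in shRai1, as given by the authors' deposited tables. Its pooled level in shCtrl was 19.0 FPKM in vehicle and 16.3 (12.5 to 20.0) in TTX, and that of Cacna1b 15.3 and 17.9 (13.8 to 21.9). Cacna1a was the only one of the 8 called lower under TTX in an arm.

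In total, TTX raised 6 of 8 genes in shCtrl, where 11.8% of 15464 genes tested were called higher, 14.9% lower and 26.7% in either direction. The median log2 change of the 8 in the authors' deposited table was 0.36, beside 0.00 over all genes and -0.05 over genes of at least 100 kb, of which 13.3% were called higher. In shRai1, 4 rose and 1 fell, beside 13.7% of genes called higher, 16.8% lower and 30.5% in either direction, and the median of the 8 was 0.09. Averaged over both arms by a combined test computed here (Wald test, Benjamini-Hochberg adjusted over 18241 genes), 5 rose and 1 fell, beside 33.1% of genes called, 15.5% higher and 17.5% lower. Of genes of at least 100 kb, 43.5% were called in this mean. In bulk cultures, fewer cells of a type and less RNA per cell cannot be told apart. Under TTX in shCtrl, 3 of 18 neuron markers rose and 5 fell, 0 of 15 astrocyte markers rose and 5 fell, and 1 of 14 oligodendrocyte lineage markers rose and 4 fell, in the authors' deposited table. In shRai1 these counts were 2 and 5 for neuron, 2 and 2 for astrocyte and 6 and 0 for oligodendrocyte lineage markers. Their part in the result was not tested.

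**Figure D2:**
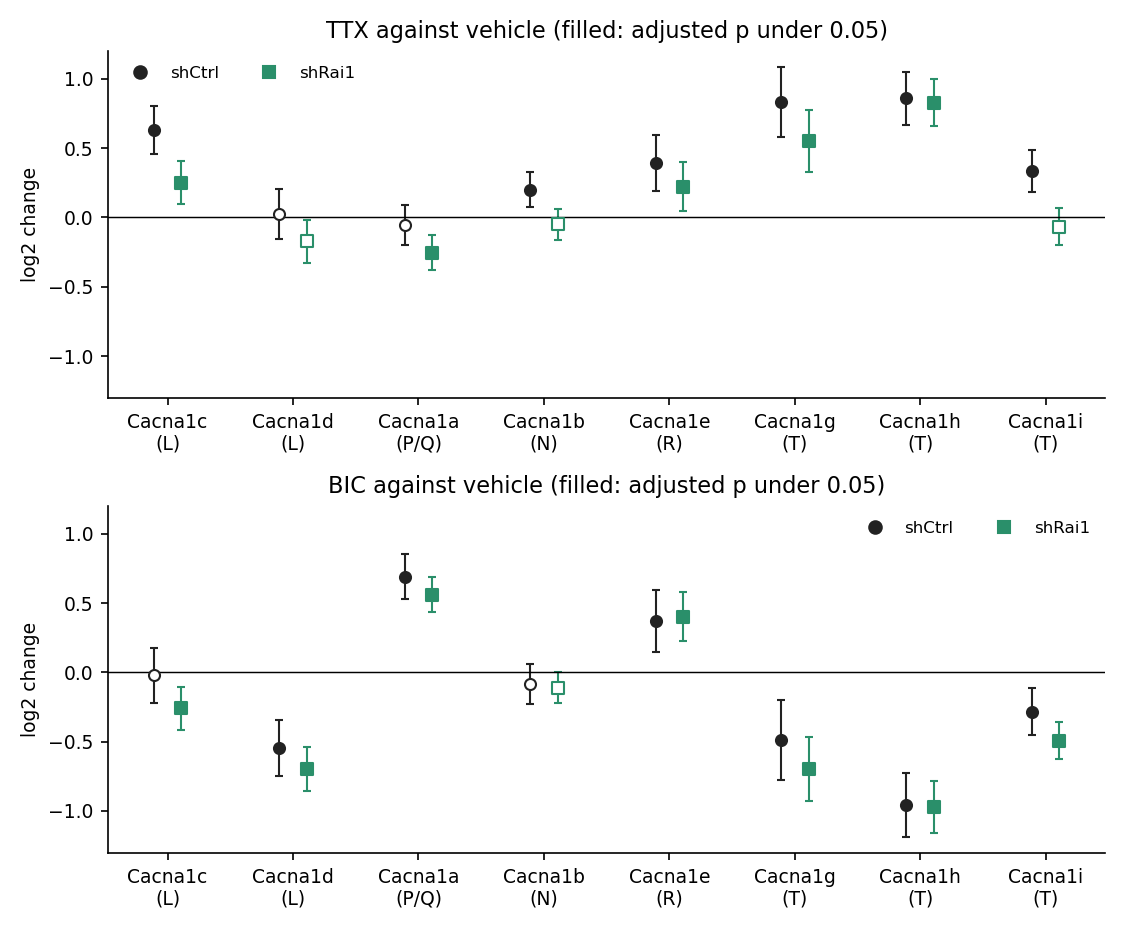
Log2 change against vehicle (y axis) for TTX (top) and BIC (bottom) in shCtrl (black circles) and shRai1 (green squares), from the authors' deposited tables, with 95% intervals. Filled symbols have an adjusted p under 0.05. Cacna1g and Cacna1h lie highest under TTX in either arm, and Cacna1h lies lowest under BIC at -0.96 and -0.97.

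Raised activity lowered the T-type genes. Cacna1h had 5.60 FPKM in vehicle and 2.96 (2.04 to 3.88) in BIC in shCtrl, the only gene of the 8 whose bounds did not overlap. Cacna1h fell by 0.96 on the log2 scale (SE 0.12, DESeq2 adjusted p = 2.29e-14) in shCtrl and by 0.97 (SE 0.096, adjusted p = 1.04e-22) in shRai1, as given by the authors' deposited tables. Cacna1g, at 4.74 FPKM in vehicle and 4.19 (3.02 to 5.37) in BIC, fell by 0.49 (SE 0.15, DESeq2 adjusted p = 0.00415) and by 0.70 (SE 0.12, adjusted p = 1.80e-08). Cacna1i, at 9.98 FPKM in vehicle and 8.70 (6.63 to 10.8) in BIC, fell by 0.28 (SE 0.087, DESeq2 adjusted p = 0.00489) and by 0.49 (SE 0.069, adjusted p = 5.48e-12). For Cacna1g the pooled FPKM of shCtrl showed a smaller fall, with a log2 ratio of -0.17. All 3 T-type genes were called lower under BIC in either arm, the values of Cacna1g and Cacna1i being those of the authors' deposited tables for shCtrl and then shRai1.

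The L-type gene Cacna1d fell as well, by 0.55 on the log2 scale in shCtrl (SE 0.10, DESeq2 adjusted p = 8.41e-07) and by 0.70 in shRai1 (SE 0.081, adjusted p = 8.28e-17), as given by the authors' deposited tables. Its pooled level was 8.63 FPKM in vehicle and 6.79 (4.36 to 9.23) in BIC. Cacna1c had a log2 change of -0.02 in shCtrl (95% interval -0.22 to 0.18, DESeq2 adjusted p = 0.913) and fell by 0.26 in shRai1 (SE 0.079, adjusted p = 0.00349), as given by the authors' deposited tables. Its pooled level was 12.1 FPKM in vehicle and 11.4 (8.62 to 14.1) in BIC.

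Cacna1a rose under BIC in the authors' deposited tables, by 0.69 on the log2 scale in shCtrl (SE 0.083, DESeq2 adjusted p = 2.28e-15) and by 0.56 in shRai1 (SE 0.065, adjusted p = 9.54e-17). Cacna1e rose by 0.37 (SE 0.11, DESeq2 adjusted p = 0.00434) and by 0.40 (SE 0.090, adjusted p = 3.91e-05) in the same arms and in the authors' deposited tables. The pooled FPKM of shCtrl did not show these rises. Cacna1a had 19.0 FPKM in vehicle and 20.0 (15.4 to 24.5) in BIC, a log2 ratio of 0.07, and Cacna1e had 17.9 and 15.9 (12.3 to 19.4), a log2 ratio of -0.17. The sign for Cacna1e was thus opposite in the 2 files. Of 5735 genes called under BIC in shCtrl, 559 (9.75%) had opposite signs in the 2 files, and of 1422 called genes of at least 100 kb, 187 (13.2%) did. Among 12311 genes with a mean count of at least 50, 9.12% had a larger gap between the files than Cacna1a and 12.1% a larger one than Cacna1e. The cause was not tested, and the direction of Cacna1e under BIC rests on the authors' deposited tables alone. Cacna1b was not called under BIC, with log2 changes of -0.08 (95% interval -0.23 to 0.06) and -0.11 (-0.22 to 0.00) in shCtrl and shRai1 in the authors' deposited tables, and 15.3 FPKM in vehicle and 12.9 (9.95 to 15.9) in BIC.

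**Figure D3:**
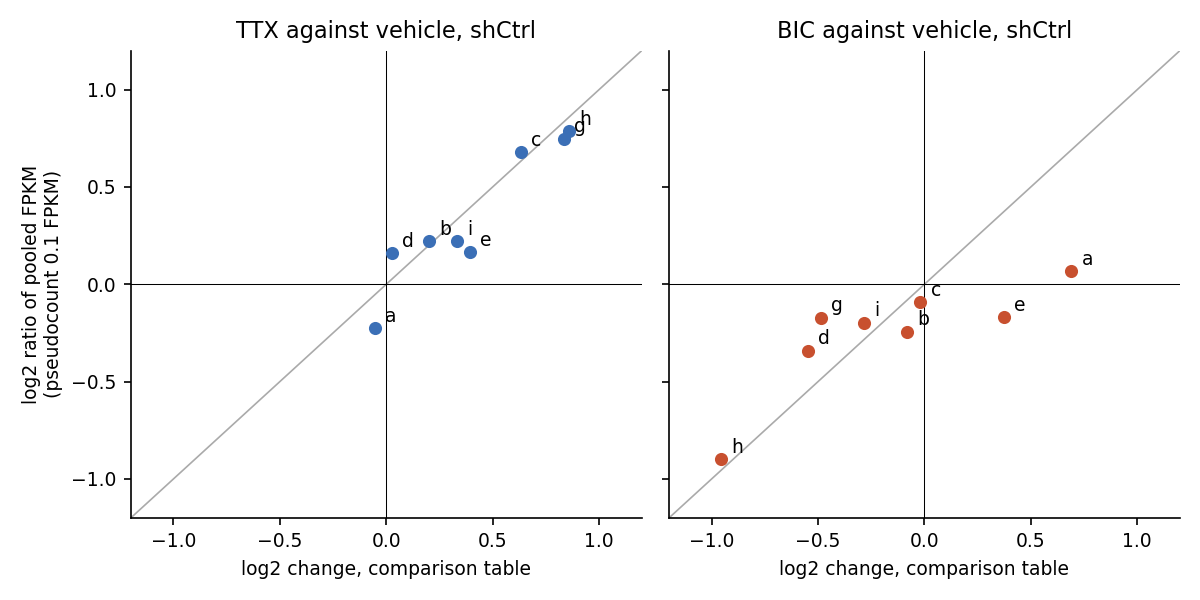
Log2 ratio of the authors' pooled FPKM in shCtrl (y axis, pseudocount 0.1 FPKM) against the log2 change of the authors' deposited tables (x axis) for TTX (left) and BIC (right). Each point is 1 gene, named by its last letter, and the grey line marks equal values. Under TTX the widest gap is that of Cacna1e (0.39 against 0.16), and under BIC Cacna1a (0.69 against 0.07) and Cacna1e (0.37 against -0.17) lie below the line and Cacna1g (-0.49 against -0.17) above it.

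Counts under BIC were 2 higher and 4 lower in shCtrl, beside 17.4% of 16692 genes called higher, 17.0% lower and 34.4% in either direction. In shRai1 they were 2 higher and 5 lower, beside 21.3% of 17510 genes called higher, 21.3% lower and 42.5% in either direction. Calls were more frequent among genes of at least 100 kb, at 53.0% in shCtrl and 61.2% in shRai1, and 6 of the 8 genes are that long. The median log2 change of the 8 in the authors' deposited tables was -0.18 in shCtrl and -0.38 in shRai1, beside 0.08 and 0.11 over genes of at least 100 kb and -0.02 and 0.00 over all genes. Averaged over both arms by the combined Wald test, 2 rose and 4 fell, beside 46.0% of genes called, 22.4% higher and 23.6% lower. Of genes of at least 100 kb, 65.0% were called in this mean. Under BIC, 10 of 18 neuron markers rose and 6 fell in either arm, with summed levels in shCtrl of 1112 FPKM in vehicle and 1319 FPKM in BIC. Summed astrocyte markers were 627 FPKM in vehicle and 486 FPKM in BIC, with 1 of 15 called higher and 6 lower in shCtrl. Oligodendrocyte lineage markers summed to 220 and 222 FPKM, with 0 of 14 called higher and 2 lower in shCtrl and a median log2 change of -0.24. Microglia markers summed to 28.3 and 36.1 FPKM, with 2 of 13 called higher and 0 lower in shCtrl. C1qc and Tyrobp were listed at 0 in vehicle. Markers without an adjusted p stayed in these totals as not called, among them C1qc, Tyrobp, Mog and Mag for either drug in shCtrl. The part of these shifts in the changes of the 8 genes was not tested.

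Set directly against each other, BIC and TTX separated 7 of the 8 genes in shCtrl and 6 in shRai1 (combined Wald test computed here, with an SE that is an upper bound). Over all 18241 genes, 32.4% were called in shCtrl, 17.1% higher in BIC and 15.3% lower, and 39.5% in shRai1, 20.3% higher and 19.3% lower. Genes of at least 100 kb were called more often, at 51.9% in shCtrl and 59.4% in shRai1. Cacna1h differed most, with 9.73 FPKM in TTX and 2.96 in BIC. Its log2 difference of BIC from TTX was -1.81 (SE 0.15, adjusted p = 4.59e-30) in shCtrl and -1.80 (SE 0.13, adjusted p = 1.33e-42) in shRai1. Cacna1g followed with -1.32 (SE 0.20, adjusted p = 2.50e-10) and -1.25 (SE 0.16, adjusted p = 2.30e-13). The log2 difference of Cacna1c was -0.65 (SE 0.14, adjusted p = 1.10e-05) and -0.51 (SE 0.11, adjusted p = 2.70e-05) in the Wald test. Cacna1i differed by -0.62 and -0.43 and Cacna1d by -0.57 and -0.52, all called in this combined Wald test. Cacna1b differed by -0.28 (adjusted p = 0.0128 by the Wald test) in shCtrl and -0.06 (95% interval -0.22 to 0.10) in shRai1. Cacna1a was the 1 gene called higher in BIC than in TTX, by 0.74 and 0.81, with pooled FPKM in shCtrl of 16.3 in TTX and 20.0 in BIC and overlapping bounds. Cacna1e was not called, with -0.02 (95% interval -0.32 to 0.28) and 0.18 (-0.07 to 0.43). 

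The shRai1 libraries were set against shCtrl within each treatment to read the effect of the knockdown. Nascent RNA of Rai1 itself was not called lower in the libraries labelled shRai1 in any treatment, with log2 changes of 0.16 (p = 0.0252, DESeq2 adjusted p = 0.357) in vehicle, -0.12 (p = 0.0523) in TTX and 0.03 (p = 0.660) in BIC in the authors' deposited tables. These values give no check of the arm labels, and the interval of Rai1 is listed for 4 genes. In vehicle, 0 of the 8 genes were called, beside 0.857% of 14237 genes. Their log2 changes in the authors' deposited table ran from -0.05 for Cacna1h to 0.24 for Cacna1g, with 6 of 8 above 0 and a median of 0.11, beside -0.01 over all genes. Cacna1i at 0.23 (p = 0.00274, DESeq2 adjusted p = 0.147) and Cacna1c at 0.18 (p = 0.0462, adjusted p = 0.437) had an unadjusted p under 0.05 in the authors' deposited table, as did 8.17% of all genes. In TTX, 0 of the 8 were called, beside 0.0283% of 21192 genes. All 8 changes lay below 0, from -0.20 for Cacna1e to -0.05 for Cacna1g, where 54.3% of all genes did, and 4 had an unadjusted p under 0.05 in the authors' deposited DESeq2 table, Cacna1b, Cacna1c, Cacna1i and Cacna1e, against 3.30% of all genes. In BIC, 0 were called, beside 0.00944% of genes, and 0 had an unadjusted p under 0.05, against 2.93% of all genes. The changes in BIC ran from -0.09 for Cacna1d to 0.08 for Cacna1b in the authors' deposited table.

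The difference between arms in each drug response was tested directly, by subtracting the response of shCtrl from that of shRai1. For TTX, Cacna1i was the 1 gene of the 8 that was called, beside 0.943% of 18241 genes called in either direction and 0.356% called lower. Its response was 0.40 lower on the log2 scale in shRai1, with a difference of -0.40 (SE 0.10, 95% interval -0.60 to -0.20, Benjamini-Hochberg adjusted p = 0.0187 in the Wald test on the DESeq2 estimates). The T-type gene thus rose under TTX in shCtrl and was not called in shRai1. Cacna1c had the next lowest difference, -0.38 (SE 0.12, adjusted p = 0.101 in the same Wald test), followed by Cacna1g at -0.28 (SE 0.17, adjusted p = 0.681) and Cacna1b at -0.25 (SE 0.086, adjusted p = 0.163). The difference for Cacna1h was -0.03 (95% interval -0.29 to 0.23). All 8 differences lay below 0, with a median of -0.23, beside 0.00 over all genes, of which 50.3% lay below 0. The 8 differences share the same libraries, and the difference for each gene contains the vehicle values described above. Of 13 oligodendrocyte lineage markers tested, 6 were called higher in this difference, 0 lower and 7 not called, with a median of 0.44. In vehicle with shRai1, 4 of 14 were called lower. Mbp and Enpp6 went the other way, with TTX responses of 0.49 and 0.30 in shCtrl and 0.14 and -0.24 in shRai1 in the authors' deposited tables. So did Mag, from 0.20 to -0.34, and Mog, from 0.51 to 0.47, at mean counts of only 2.98 and 2.92. Of 18 neuron markers, 0 were called higher and 1 lower in this difference, and 1, Rbfox3, was called higher in vehicle with shRai1. The median difference of the 18 was -0.01. Rbfox3 was named here after its values were seen, with TTX responses of 0.42 in shCtrl and 0.03 in shRai1 in the authors' deposited tables. Stmn2 went the other way in these tables, from -0.12 in shCtrl to 0.18 in shRai1, as did Tubb3, from -0.27 to -0.0006. Of 15 astrocyte markers, 1 was called higher in the difference and 2 lower in vehicle with shRai1. The part of these markers in the difference for Cacna1i was not tested. For BIC, 0 of the 8 were called, beside 0.0219% of genes, and 0 had an unadjusted p under 0.05 by the Wald test, against 3.03% of all genes. Those differences ran from -0.24 for Cacna1c (95% interval -0.49 to 0.01) to 0.03 for Cacna1e (-0.26 to 0.31).

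**Figure D4:**
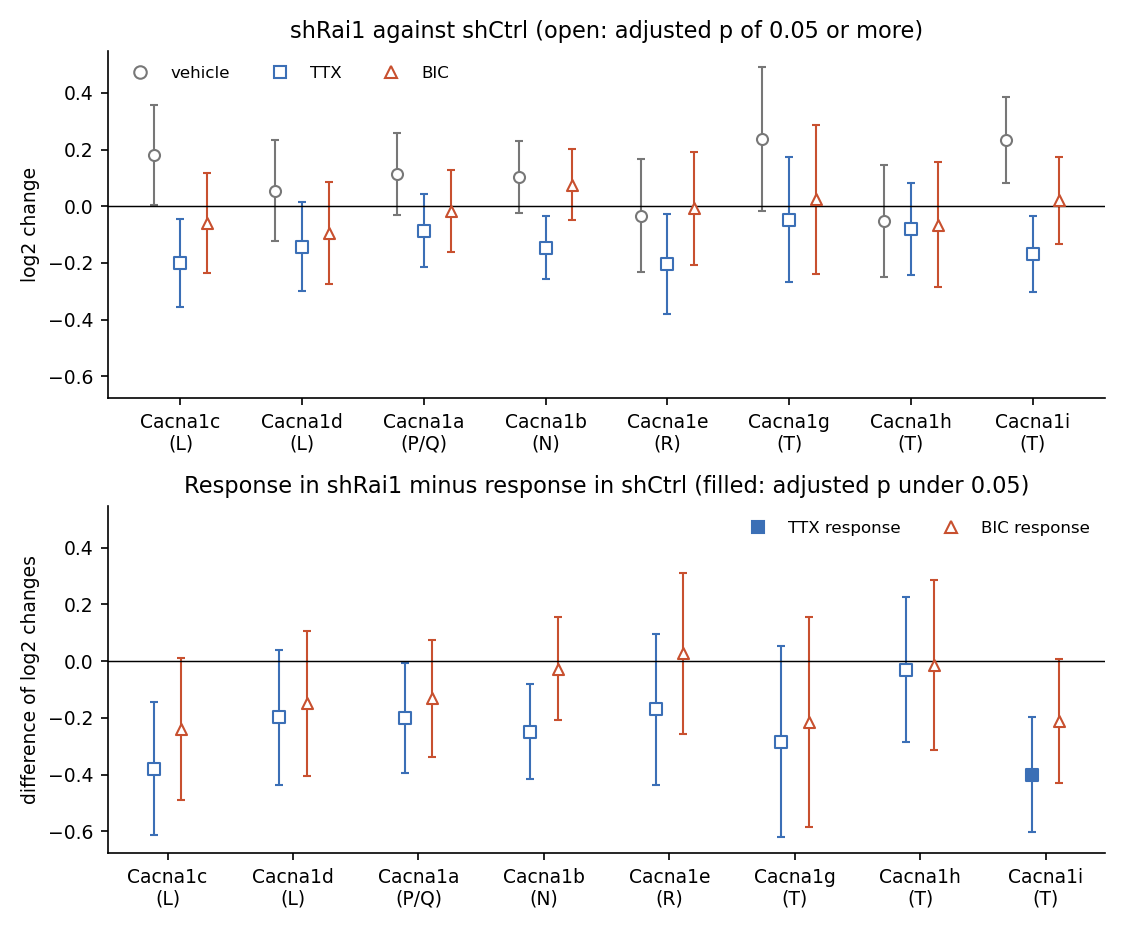
Log2 change of shRai1 against shCtrl in vehicle, TTX and BIC from the authors' deposited tables (top), and the TTX and BIC response in shRai1 minus that in shCtrl, computed here (bottom), with 95% intervals. Filled symbols have an adjusted p under 0.05. All symbols are open except the TTX response of Cacna1i at -0.40, and all 8 TTX differences lie below 0.

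Genes whose pattern was most like that of the 3 strongest responders were sought among 12325 genes with a mean count of at least 50, by the Euclidean distance over the 4 log2 responses (TTX and BIC in each arm). The size of a response was the root mean square of these 4 values, which was 0.91 for Cacna1h, 0.66 for Cacna1g and 0.46 for Cacna1a. Nearest to Cacna1h were Ssbp3 (distance 0.0987), Cstad (0.119) and B3galt5 (0.159). Nearest to Cacna1g were Hivep3 (0.0694), Phyhip (0.115) and Rimkla (0.151), and nearest to Cacna1a were Actn4 (0.0458), Gars (0.0673) and Otud7a (0.0743). The 8 members themselves were left out of this search. Actn4 shares its listed interval with another gene.

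The partners of the pore were read from lists of related genes. Auxiliary beta and alpha-2-delta subunits set the trafficking and gating of the high-voltage channels. Of the 8 listed, 4 rose and 1 fell under TTX in shCtrl, 3 rose and 2 fell in shRai1, 3 rose and 4 fell under BIC in shCtrl, and 3 rose and 5 fell in shRai1. Over all genes, 26.7% were called under TTX in shCtrl and 30.5% in shRai1, and 34.4% and 42.5% under BIC. Cacna2d1 had 10.5 FPKM in shCtrl vehicle, 8.41 in TTX and 18.9 in BIC, so that it was low in TTX and high in BIC. The authors' deposited tables gave it a log2 change of -0.64 (SE 0.11) for TTX and 1.25 (SE 0.12) for BIC in shCtrl. Cacna2d2 moved the other way, with 0.55 (SE 0.10) and -1.26 (SE 0.12) in the authors' deposited tables, although its FPKM were 6.91 in vehicle, 8.12 in TTX and 6.77 in BIC. Cacnb1 had 25.6 FPKM in vehicle, 29.6 in TTX and 11.3 in BIC, and log2 changes of 0.34 (SE 0.10) and -1.05 (SE 0.12) in the authors' deposited tables. Cacnb4, by contrast, was not called under TTX in shCtrl and rose under BIC by 0.74 (SE 0.10) in the authors' deposited table. The directions in shRai1 were the same for these 4 genes, with Cacnb1 not called and Cacnb4 called lower under TTX. Because they were named from genes called in the same direction in both arms, the choice itself set part of this likeness.

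The gamma subunit family includes several proteins known mainly as partners of AMPA receptors. Of its 8 listed genes, 3 rose and 2 fell under TTX in shCtrl, beside 26.7% of all genes called, and 1 rose under BIC, beside 34.4%. Cacng3 rose under both drugs, by 0.59 (SE 0.13) and 0.76 (SE 0.14) in shCtrl in the authors' deposited tables, at 16.1 FPKM in vehicle, 19.2 in TTX and 19.8 in BIC. Cacng5 fell by 0.75 (SE 0.11) under TTX in the authors' deposited table, and with 0.25 (SE 0.12) was not called under BIC. In shRai1, 1 of the family rose and 2 fell under TTX, beside 30.5% of all genes called, and 3 rose and 2 fell under BIC, beside 42.5%. Among 3 other pore-forming relatives, Nalcn, which encodes a sodium leak channel, fell under BIC by 0.61 (SE 0.13) in shCtrl in the authors' deposited table, from 6.18 to 3.51 FPKM. Cacna1f, the retinal L-type gene, was called higher under BIC at 1.01 (SE 0.42) in the authors' deposited table, at a mean count of 6.58 over all libraries.

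Regulators and presynaptic partners of the channels changed in both directions under each drug. Of 11 measured, 1 rose and 5 fell under TTX in shCtrl, beside 11.8% of all genes called higher and 14.9% lower, and 5 rose and 3 fell under BIC, beside 17.4% and 17.0%. In shRai1 these counts were 1 and 6, beside 13.7% called higher and 16.8% lower, and then 5 and 4, beside 21.3% in each direction. Gem and Rem2 encode small GTP-binding proteins that inhibit calcium channels. Gem had 2.35 FPKM in vehicle, 1.90 in TTX and 6.60 in BIC, and the authors' deposited tables gave log2 changes of -0.74 (SE 0.19) for TTX and 1.09 (SE 0.18) for BIC. Rem2 fell by 1.94 (SE 0.19) under TTX and fell by 1.23 (SE 0.20) under BIC, as given by the authors' deposited tables, at 21.1 FPKM in vehicle, 6.94 in TTX and 11.3 in BIC. Rims1 and Rimbp2 encode scaffold proteins that hold calcium channels at the active zone. Rims1 fell by 0.81 (SE 0.11) under TTX and rose by 0.52 (SE 0.13) under BIC, and Rimbp2 fell by 0.21 (SE 0.065) and fell by 0.89 (SE 0.074), in shCtrl by the authors' deposited tables.

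Of 15 genes of calcium release and removal, 3 rose and 2 fell under TTX and 3 rose and 3 fell under BIC in shCtrl, shares near the 26.7% and 34.4% called over all genes. In shRai1 these counts were 2 and 4 and then 4 and 6, beside 30.5% and 42.5%. Atp2b1, a calcium pump of the plasma membrane, had 21.8 FPKM in vehicle, 16.5 in TTX and 28.7 in BIC. Its log2 changes in shCtrl were -0.53 (SE 0.092) and 0.61 (SE 0.10) in the authors' deposited tables. Slc8a2, a sodium-calcium exchanger, moved the other way, with 0.54 (SE 0.10) and -1.32 (SE 0.13) in the authors' deposited tables and 22.5, 26.2 and 10.7 FPKM in vehicle, TTX and BIC. Atp2a2, the calcium pump of the endoplasmic reticulum, fell under TTX by 0.65 (SE 0.071) and was not called under BIC (0.02, SE 0.079), and Slc8a3, another exchanger, rose under BIC by 0.77 (SE 0.12), in the authors' deposited tables for shCtrl. Of the 45 measured genes of these lists, 0 were called for shRai1 against shCtrl in any treatment in the authors' deposited DESeq2 tables. Over all genes, 0.857% were called in vehicle, 0.0283% in TTX and 0.00944% in BIC. An unadjusted p under 0.05 stood beside 3 of the 45 in vehicle, 9 in TTX and 2 in BIC, against 8.17%, 3.30% and 2.93% of all genes with a p-value.

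**Figure D5:**
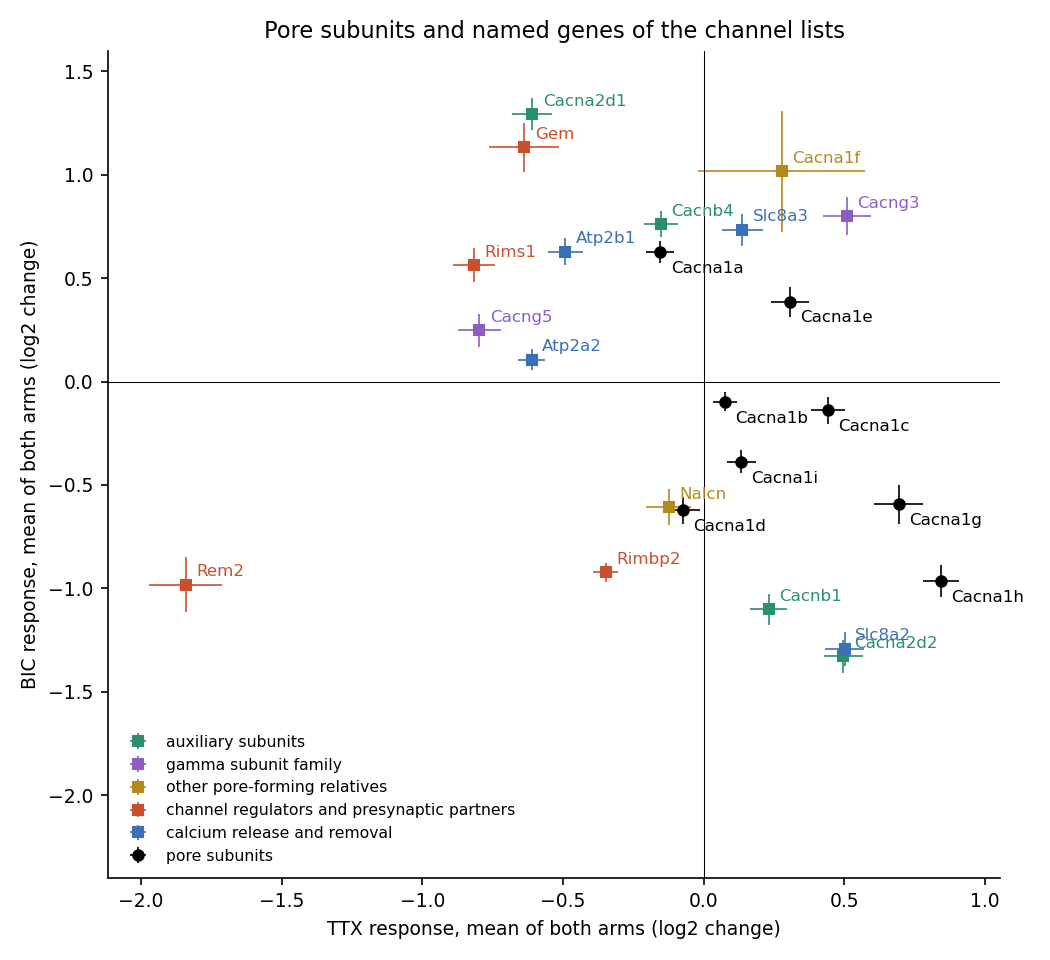
Mean log2 response over both arms to TTX (x axis) and BIC (y axis), computed here, for the 8 pore subunits (black circles) and the named genes of the related lists (coloured squares), with bars of 1 SE. Cacna1h and Cacna1g lie at the lower right (higher under TTX, lower under BIC), as do Slc8a2 and Cacna2d2 further down, and Cacna2d1 and Gem lie at the upper left.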

How the data were processed

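Bru-seq of 16 libraries in 6 groups was used; 12 samples of ChIP-seq were not analysed here. The submitters' processing notes name TopHat2 2.1.0, Bowtie2 2.2.6, DESeq2 and mm9. Libraries were stranded, per the labels' protocols.

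Each of the 7 comparison tables holds a mean normalized count (a scaled signal), a log2 change, its SE, a Wald score and p-values that the authors computed with DESeq2, per the file headers and the processing notes. They list 22919 genes, of which 21192 had a mean above 0. The authors' deposited tables gave the calls (adjusted p under 0.05), and genes that the authors left without an adjusted p stayed without. The log2 changes of the 7 tables close to within 1e-09. Because shRai1 against shCtrl in vehicle comes without gene names, 20107 genes were named by their unique mean count, a step that recovered 20107 of 20107 hidden names when run on a named table. Pooled FPKM with bounds were made by the authors, per the file headers, over whole genes. The knockdown FPKM columns did not follow their names and served only in a mean over the 6 conditions.

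Differences of responses, means over arms and BIC minus TTX were computed here from deposited changes and SEs (Python 3.11.15, numpy 2.4.6, scipy 1.17.1), with two-sided Wald tests adjusted by Benjamini-Hochberg over the 18241 genes whose FPKM averaged 0.1 or more. BIC minus TTX shares the vehicle libraries, so its SE is an upper bound. By the Wald test of the TTX difference between arms, 9.05% of the 18241 genes had an unadjusted p under 0.05. Whether the deposited SEs hold in these libraries was not tested. A gene that was not called may still differ between the arms. Depth per library is not given in the sources used here, so precision rests on the authors' SEs. The members and lists were chosen with earlier results of these data known. From each related list, up to 4 genes were named by the smallest adjusted p of the mean response, among those called in the same direction in both arms with a mean log2 response of at least 0.5 in size. Alternatives changed the threshold, the filter, the centring, the pseudocount and the adjustment. Cell markers served only as values beside results.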

Additional observations from a re-analysis of the deposited data

Results flagged for a closer look

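The TTX response of Cacna1i differed between the arms by a direct test of the difference (-0.40 on the log2 scale, shRai1 minus shCtrl, adjusted p = 0.0187 by the Wald test over 18241 genes), 1 of the 172 genes called in that test. In the authors' deposited tables its response was 0.33 in shCtrl and -0.07 in shRai1. For shRai1 against shCtrl, Cacna1i had a log2 change of 0.23 in vehicle and -0.17 in TTX there, neither called. The difference in response contains both values, and the shCtrl vehicle group held 2 libraries.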

How the results depend on the processing

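No paired analysis was possible because the deposited files hold no values per library, so neither a replicate block nor leaving out a library was run. Of the counts of members called in either direction, 1 changed by more than 1.5 times: for the TTX response of shRai1 minus shCtrl, the count went from 1 to 0 at a threshold of 0.01. No called value changed sign, and 1 value that was not called did, Cacna1c under BIC in shCtrl (from -0.02 to 0.02 when centred on the median gene). At 0.01, calls were lost for Cacna1i in that difference (adjusted p = 0.0187) and in the mean TTX response (0.0323), for Cacna1e under TTX in shRai1 (0.0451) and for Cacna1b in BIC minus TTX in shCtrl (0.0128), all from DESeq2 or the Wald test named above. At 0.1, calls were gained for Cacna1d under TTX in shRai1, where it joined Cacna1a as called lower, and for Cacna1b and Cacna1c in the mean BIC response. With all genes that have a p-value in the adjustment, Cacna1e under TTX in shRai1 was lost (DESeq2 p-values, adjusted p = 0.0614). With a pseudocount of 1 FPKM, the BIC ratio of Cacna1h was -0.74 in place of -0.90. Centring on the median gene moved log2 changes by at most 0.0438 and changed no call of the 8 genes. Where 2 files disagree, as for Cacna1a and Cacna1e under BIC, values per library would be needed.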
